A study of Mus musculus with 2 samples.

Results

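The 6 genes described here code for the mouse Fc gamma receptors and their partners: the activating receptors Fcgr1, Fcgr3 and Fcgr4, the inhibitory receptor Fcgr2b, the shared signalling chain Fcer1g, and the neonatal Fc receptor Fcgrt. They were taken by name from the 32228 genes of the deposited matrices and followed through 8 classes of immune cells. CD45+ cells without the dead-cell dye 7-AAD were sorted from the colonic lamina propria (LP) of C57BL/6 mice labelled as 8 to 10 weeks old (the methods give an upper age of 12 weeks). Each of the 2 libraries pooled 5 mice, WT in the first and Ring1AKO, which lack the Polycomb protein Ring1A, in the second, and all mice had drunk 2.5% dextran sulfate sodium (DSS), a polysaccharide that injures the colon, for 7 or 8 days. According to the methods the cells were coated with an antibody to CD16/32, the products of Fcgr3 and Fcgr2b, before the sort. The sort gate itself was on CD45. There was 1 library per genotype and no untreated library, so no test between the libraries was possible, and genotype, pool and library cannot be told apart.

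Barcodes with at least 1000 unique molecular identifiers (UMIs, which count captured transcripts), at least 500 genes and under 5% mitochondrial UMIs were kept, 6005 in the WT library and 7918 in the Ring1AKO library, with medians of 6354 and 5035 UMIs. A cell was assigned to a class by UMIs of marker genes and is called like that class. The WT library held 735 monocyte-like, 313 C1q macrophage-like, 187 neutrophil-like, 145 dendritic-like, 1177 B-like, 92 NK-like, 102 gamma-delta T-like cells and 1 mast-like cell. The Ring1AKO library held 217, 228, 192, 153, 3560, 53, 196 and 19 cells of these classes in the same order. Barcodes that met more than 1 gate, 406 and 565 of them, were left out as possible doublets, and no doublet caller was run. Of the kept barcodes, 11 had the same sequence in both libraries. Ring1, the targeted gene, had 13.4 UMIs per 1000000 UMIs (CPM) in the WT library and 11.8 in the Ring1AKO library. The 95% Poisson intervals, 12.5 to 14.3 and 11.0 to 12.7, overlapped. The methods do not describe the disruption, and 3′ counts need not show one further upstream, so the genotypes rest on the labels. Levels below are the UMIs of a gene over all cells of a class as CPM, each followed by an exact 95% Poisson interval, and shares of cells carry exact Clopper-Pearson intervals. A log2 ratio is Ring1AKO over WT with 1 UMI added to each sum. All intervals cover counting error only, not the spread between mice or libraries. Those of levels and ratios treat each UMI as independent and so also leave out the spread between cells.

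Fc gamma receptors bind the constant part of IgG and let myeloid cells respond to antibody-coated particles. The activating receptors signal through the ITAM of the FcR gamma chain coded by Fcer1g, which is also needed to bring them to the cell surface, while the receptor coded by Fcgr2b carries an ITIM and dampens these signals, in B cells those of the antigen receptor as well. FcRn, made of the Fcgrt product and beta-2-microglobulin, protects IgG from degradation inside cells. Interferon-gamma is a known inducer of Fcgr1 in monocytes and macrophages, through a promoter element named GAS, and PU.1 is a transcription factor of myeloid genes.

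Fcgr4, Fcgr3, Fcgr2b and Fcer1g lie within one stretch of chromosome 1. In GENCODE vM21 on GRCm38 their genes span chr1:170958617-170976547 for Fcgr2b, chr1:171018920-171029761 for Fcgr4, chr1:171051174-171064935 for Fcgr3 and chr1:171229572-171234365 for Fcer1g. Fcgr1 lies at chr3:96282909-96293969 and Fcgrt at chr7:45092990-45103851. Fcgr4 is on the plus strand and the other 5 genes are on the minus strand. Fcgr2b and Fcgr3 share near-identical exons for their extracellular parts, where the counting could leave out or split reads. Antisense genes overlap Fcgr2b (Gm38204, with 0 and 2 UMIs in the kept cells) and Fcgrt (Gm45669, with 13 and 27 UMIs).

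The 250 bases before the RefSeq start of Fcgr1 and Fcgr4 are shown because these are the receptor genes that were lower in Ring1AKO in monocyte-like cells. They are read on the coding strand, 5′ to 3′, from the RefSeq table for GRCm38.p6, and capitals mark matches to 3 motifs searched on both strands: GAS (TTCNNNGAA), the PU.1 core (GAGGAA) and the core of an interferon-stimulated response element, ISRE (GAAANNGAA).
Fcgr1, minus strand of chr3:96293970-96294219: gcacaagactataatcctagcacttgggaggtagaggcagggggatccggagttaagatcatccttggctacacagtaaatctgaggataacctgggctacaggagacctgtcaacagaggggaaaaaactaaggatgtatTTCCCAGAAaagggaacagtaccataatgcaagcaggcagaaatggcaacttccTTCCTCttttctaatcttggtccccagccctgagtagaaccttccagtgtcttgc
Fcgr4, plus strand of chr1:171018676-171018925: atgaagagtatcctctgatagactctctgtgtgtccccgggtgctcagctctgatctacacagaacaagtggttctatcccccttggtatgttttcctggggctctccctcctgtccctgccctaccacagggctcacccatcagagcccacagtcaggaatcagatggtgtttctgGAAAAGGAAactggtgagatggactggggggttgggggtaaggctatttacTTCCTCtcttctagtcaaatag
The Fcgr1 window held a GAS match between 109 and 101 bases before the start and a PU.1 core on the opposite strand between 55 and 50 bases before it. The Fcgr4 window held an ISRE match 73 to 65 bases before the start and a PU.1 core on the opposite strand 22 to 17 bases before it. No capitals overlap between motifs. Of the other members, Fcgr3 had 1 PU.1 core, the same site in both of its overlapping listed windows. Fcgr2b, Fcer1g and Fcgrt had no match in theirs. Of 32851 windows of this length in the table, 7.02% held the GAS motif, 23.3% the PU.1 core and 7.13% the ISRE. These matches describe letters and do not show binding.

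Each member had its own order of classes, and that order was largely shared by both libraries. Fcgr1 was found mainly in monocyte-like and C1q macrophage-like cells, Fcgr3 and Fcgr4 in these and in neutrophil-like cells, and Fcgr2b in macrophage-like, monocyte-like and B-like cells. Fcer1g was high in every myeloid class other than dendritic-like cells and also in NK-like cells, and Fcgrt was highest in dendritic-like cells.

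**Figure D1:**
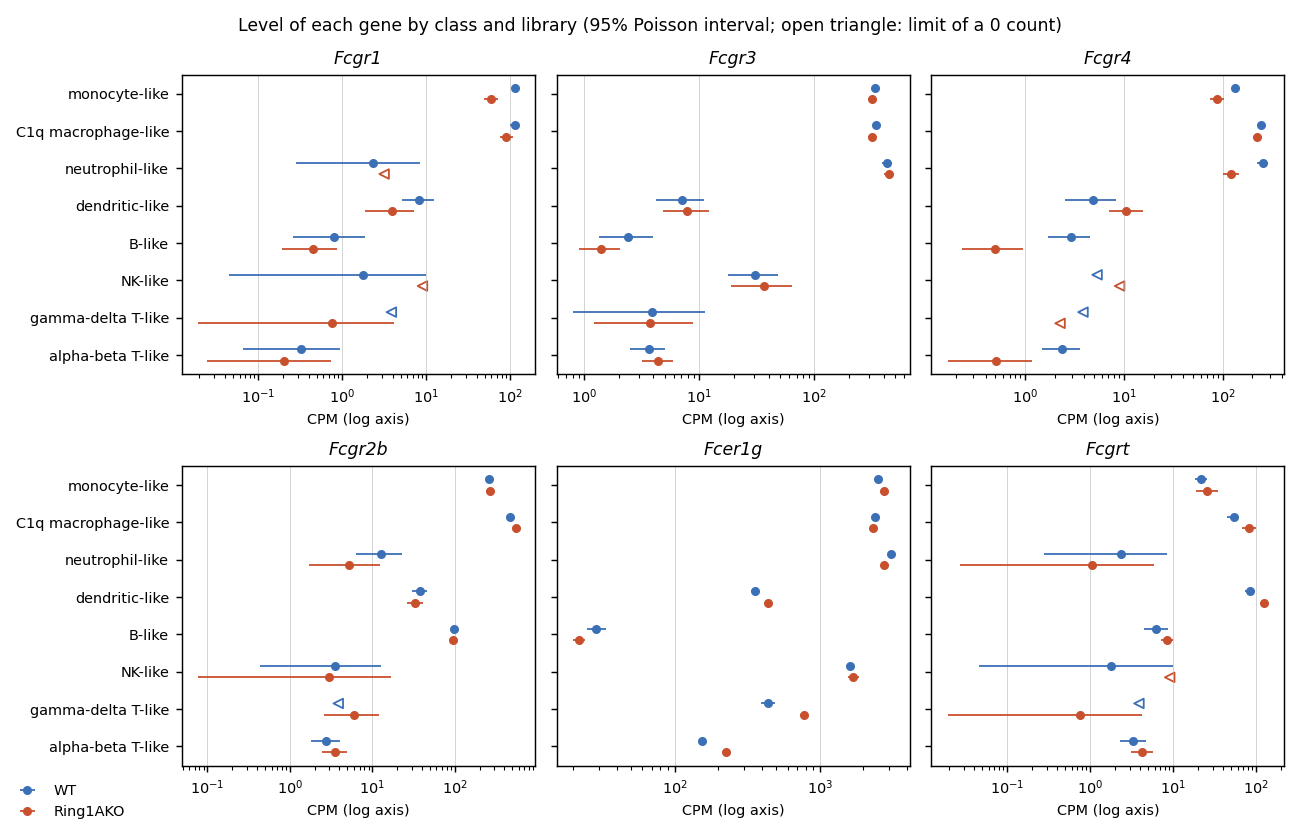
Level of the 6 genes in 7 classes and in alpha-beta T-like cells, in CPM on a log axis that differs between panels. Points are the WT (blue) and Ring1AKO (red) library with the 95% Poisson interval, and open triangles stand at 3 UMIs where the count was 0. The Fcgr1 points of monocyte-like cells lie at 114 and 60.2 CPM and the Fcgr4 points of neutrophil-like cells at 254 and 122 CPM.

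Fcgr1, the high-affinity IgG receptor, had the clearest difference of the activating receptors in monocyte-like cells. Its level was 114 CPM (106 to 122, 796 UMIs) in the WT library and 60.2 CPM (49.2 to 72.9, 105 UMIs) in the Ring1AKO library, a log2 ratio of -0.91 (-1.23 to -0.62). The library intervals did not overlap. Fcgr1 was seen in 53.7% and 32.3% of these cells, with median depths of 9658 and 7905 UMIs, against 0.216% and 0.143% of alpha-beta T-like cells, a class that should lack it, at medians of 5801 and 5669 UMIs. With every cell thinned to 1000 UMIs the shares were 11.2% (8.97 to 13.7) and 4.15% (1.91 to 7.73), again lower in the Ring1AKO library. No single cell carried more than 1.01% of the Fcgr1 UMIs in WT or 5.71% in Ring1AKO monocyte-like cells.

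In C1q macrophage-like cells Fcgr1 stood at 114 CPM (101 to 127) in WT and 90.4 CPM (75.4 to 108) in Ring1AKO, a log2 ratio of -0.32 (-0.64 to -0.03). This difference depended on which barcodes were counted. It was 0.10 when barcodes with a UMI of another class's defining marker were left out, and -0.79 when barcodes in more than 1 gate were kept, an alternative chosen after the data were seen. The summed level of the 7 monocyte markers in these cells was 12244 CPM in WT and 5443 CPM in Ring1AKO, all 7 being detected in both, and its part in the Fcgr1 difference was not tested. Thinned shares with an Fcgr1 UMI were 8.31% and 9.21%, so they did not follow the order of the CPM. In WT the monocyte-like and macrophage-like levels of Fcgr1 did not differ beyond their intervals, whereas in Ring1AKO they were apart.

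Outside these classes Fcgr1 was scarce. Dendritic-like cells had 8.16 CPM (5.12 to 12.4, 22 UMIs) in WT and 3.94 CPM (1.89 to 7.25, 10 UMIs) in Ring1AKO, with overlapping intervals. Neutrophil-like cells had 2 UMIs in WT and none in Ring1AKO, where a count of 0 in 192 cells allows a share of up to 1.56% (3 counts), a limit on cells with a UMI and not on cells expressing the gene. B-like cells held 5 and 8 UMIs, at or near the level of alpha-beta T-like cells.

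Fcgr4, an activating receptor of myeloid cells for IgG2 subclasses, was lower in the Ring1AKO library in monocyte-like and in neutrophil-like cells. In monocyte-like cells its level was 133 CPM (125 to 142, 932 UMIs) in WT and 87.7 CPM (74.4 to 103, 153 UMIs) in Ring1AKO, a log2 ratio of -0.60 (-0.86 to -0.36). In neutrophil-like cells it was 254 CPM (221 to 290, 219 UMIs) in WT and 122 CPM (101 to 147, 116 UMIs) in Ring1AKO, a log2 ratio of -1.05 (-1.39 to -0.72). The intervals of the libraries were apart in both classes. Thinned shares with an Fcgr4 UMI had the same order, 12.1% and 5.07% of monocyte-like cells and 20.3% (14.8 to 26.8) and 9.90% (6.06 to 15.0) of neutrophil-like cells. In neutrophil-like cells the median depth was 4172 UMIs in WT and 4885.5 in Ring1AKO, and the single cell with the most Fcgr4 UMIs held 5.02% and 4.31% of them. The summed level of the monocyte markers in neutrophil-like cells was 1183 CPM in WT and 1717 CPM in Ring1AKO, with 7 and 6 of 7 detected, and that of the neutrophil markers was 156386 and 224400 CPM. Their part in the Fcgr4 difference was not tested.

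Fcgr4 in C1q macrophage-like cells was at 243 CPM (225 to 262) in WT and 225 CPM (201 to 251) in Ring1AKO, with a log2 ratio of -0.11 (-0.31 to 0.08). Counting error alone spans this difference, which reached -0.46 with barcodes in more than 1 gate kept. The order of classes for Fcgr4 therefore differed between the libraries: neutrophil-like and macrophage-like cells had overlapping intervals in WT, and in Ring1AKO the macrophage-like cells stood apart above the neutrophil-like cells. Dendritic-like cells had 13 UMIs in WT and 27 in Ring1AKO, 4.82 and 10.6 CPM, a log2 ratio of 1.09 (0.14 to 2.22). That ratio was -0.04 with barcodes in more than 1 gate kept. B-like cells had 18 and 9 UMIs and alpha-beta T-like cells 22 and 5, with 2.90 and 0.50 CPM in B-like cells and 2.35 and 0.51 CPM in alpha-beta T-like cells. Cell-free RNA has the profile of barcodes under 100 UMIs, and its share of a class was set from the immunoglobulin transcripts seen there (for B-like cells, the median share of the other classes). At these shares it would give 0.92 and 0.59 CPM in B-like cells and 1.16 and 0.62 CPM in alpha-beta T-like cells. No Fcgr4 UMI was found in NK-like or gamma-delta T-like cells of either library.

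Fcgr3, the low-affinity activating receptor CD16, was nearly level between the libraries in the classes that carried it. In monocyte-like cells it was at 334 CPM (321 to 348) in WT and 317 CPM (291 to 345) in Ring1AKO, a log2 ratio of -0.07 (-0.21 to 0.06). In C1q macrophage-like cells the levels were 346 and 320 CPM, and the log2 ratio was -0.11 (-0.28 to 0.05). In neutrophil-like cells they were 430 CPM (388 to 476) and 442 CPM (401 to 487), with a log2 ratio of 0.04 (-0.16 to 0.25). The neutrophil-like cells that had less Fcgr4 in Ring1AKO thus had Fcgr3 at a level whose interval includes no difference. NK cells use CD16 to recognise antibody-coated targets, and NK-like cells held 17 and 12 Fcgr3 UMIs, 30.4 CPM (17.7 to 48.7) and 36.3 CPM (18.7 to 63.4), above the 3.64 and 4.36 CPM of alpha-beta T-like cells.

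Fcgr2b, the only inhibitory member, did not follow Fcgr1 and Fcgr4 in monocyte-like cells. Its level there was 264 CPM (252 to 277) in WT and 266 CPM (242 to 291) in Ring1AKO, a log2 ratio of 0.01 (-0.14 to 0.16). It was highest in C1q macrophage-like cells, with 472 CPM (447 to 499) in WT and 557 CPM (518 to 597) in Ring1AKO, a log2 ratio of 0.24 (0.11 to 0.37). That ratio was 0.02 with 1 more marker in every gate and -0.03 with barcodes in more than 1 gate kept. In B-like cells Fcgr2b had 98.0 CPM (90.3 to 106, 609 UMIs) in WT and 96.1 CPM (91.6 to 101, 1726 UMIs) in Ring1AKO, a log2 ratio of -0.03 (-0.16 to 0.11). Thinned shares of B-like cells with an Fcgr2b UMI were 10.2% (8.53 to 12.1) and 8.76% (7.86 to 9.74). Although the B-like cells numbered 1177 and 3560, their Fcgr2b level per UMI was close in both libraries.

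Plasma-like cells follow B cells in differentiation and were used as a reference class. They had less Fcgr2b per UMI than B-like cells, 16.6 CPM in WT and 12.5 CPM in Ring1AKO. Their median depth was 27418 and 35972 UMIs, against 4195 and 4340.5 in B-like cells. At these unequal depths the shares of cells with an Fcgr2b UMI were close, 34.6% and 31.6% of plasma-like and 36.6% and 34.4% of B-like cells. Dendritic-like cells had 37.5 CPM (30.5 to 45.5) and 33.1 CPM (26.4 to 41.0). Neutrophil-like cells had only 11 and 5 Fcgr2b UMIs. Macrophage-like, monocyte-like, B-like and dendritic-like cells kept this order in both libraries, with no overlap between neighbouring intervals.

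The balance of activating to inhibitory transcripts was taken as the UMIs of Fcgr1, Fcgr3 and Fcgr4 over those of Fcgr2b. In monocyte-like cells the quotient was 2.20 in WT (4064 over 1847 UMIs) and 1.75 in Ring1AKO (811 over 464 UMIs), a log2 ratio of -0.33 (-0.51 to -0.15, interval on the log scale). For C1q macrophage-like cells it was 1.49 and 1.14, a log2 ratio of -0.38 (-0.56 to -0.21). The activating share of these UMIs was thus 68.8% (67.6 to 69.9) in WT and 63.6% (60.9 to 66.3) in Ring1AKO monocyte-like cells, and 59.8% and 53.3% in macrophage-like cells. The macrophage-like balance was not recomputed under other settings, but the log2 ratios of its parts varied with them. Fcgr1 ranged from -0.79 to 0.10 and Fcgr2b from -0.03 to 0.31. Fcgr3 ranged from -0.45 to 0.04 and Fcgr4 from -0.46 to -0.04. Dendritic-like cells had more inhibitory than activating UMIs, with quotients of 0.535 and 0.679. Neutrophil-like cells were the opposite, with 592 activating against 11 inhibitory UMIs in WT and 535 against 5 in Ring1AKO. The quotient compares captured transcripts of different genes and not receptor proteins.

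Fcer1g, the signalling chain that the activating receptors need, was abundant and differed little in the classes that carried them. It was at 2504 CPM in WT and 2750 CPM in Ring1AKO monocyte-like cells, a log2 ratio of 0.14 (0.09 to 0.18), at 2395 and 2333 CPM in C1q macrophage-like cells, and at 3102 and 2757 CPM in neutrophil-like cells, a log2 ratio of -0.17 (-0.25 to -0.09). NK-like cells, in which the chain pairs with CD16 and NKp46, had 1620 CPM (1516 to 1729) and 1708 CPM (1570 to 1855), a log2 ratio of 0.08 (-0.08 to 0.23). Thus Fcgr1 and Fcgr4 were lower in Ring1AKO monocyte-like cells that had as much or more of the chain. The 19 mast-like cells of Ring1AKO had 1097 CPM (921 to 1297, 137 UMIs), and the mast-like class was not compared because WT had 1 cell. Fcer1g also forms part of the IgE receptor of mast cells.

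Among the lymphoid classes, Fcer1g was higher in Ring1AKO in gamma-delta T-like cells. It rested on 341 UMIs in WT, 439 CPM (394 to 488), and 1026 UMIs in Ring1AKO, 775 CPM (728 to 824), a log2 ratio of 0.82 (0.64 to 1.00). It was seen in 45.1% and 53.6% of these cells, and thinned shares were 25.5% (17.4 to 35.1) and 35.2% (28.5 to 42.3), whose intervals overlap. The summed level of the 8 NK markers was 3638 CPM in WT and 5704 CPM in Ring1AKO gamma-delta T-like cells, with 8 and 7 detected, and its part in the Fcer1g difference was not tested. Alpha-beta T-like cells had 154 CPM in WT and 226 CPM in Ring1AKO, a log2 ratio of 0.55 (0.45 to 0.65), with a UMI in 23.7% and 25.9% of cells. These shares were above those of B-like cells, 9.09% and 5.90%, a class that should lack the gene, so Fcer1g in T-like cells exceeded the background. The gamma-delta gate rested on Trdc and Cd3 genes. In B-like cells Fcer1g was at 29.0 and 22.0 CPM, where cell-free RNA at the estimated shares would give 18.1 and 15.5 CPM. A single cell held 41 of the 180 UMIs in WT B-like cells, and without the cell with the most UMIs in each library the levels were 22.4 and 21.1 CPM.

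Fcgrt, which codes for the heavy chain of FcRn, was highest in dendritic-like cells, with 83.9 CPM (73.3 to 95.5, 226 UMIs) in WT and 125 CPM (112 to 140, 318 UMIs) in Ring1AKO, a log2 ratio of 0.58 (0.33 to 0.83). In C1q macrophage-like cells it was at 53.3 CPM (45.0 to 62.7, 146 UMIs) and 82.6 CPM (68.2 to 99.0, 116 UMIs), a log2 ratio of 0.63 (0.27 to 0.99). Both intervals lay above 0. The summed level of the 8 dendritic markers was 10029 CPM in WT and 13501 CPM in Ring1AKO dendritic-like cells. In the macrophage-like cells the 6 macrophage markers summed to 4854 and 7537 CPM and the 7 monocyte markers to 12244 and 5443 CPM, and the part of these shifts in the Fcgrt ratios was not tested. In the dendritic-like class the ratio was 0.04 with barcodes in more than 1 gate kept. Monocyte-like cells had 21.7 and 25.8 CPM and B-like cells 6.27 and 8.52 CPM, with overlapping intervals in each. Thinned shares of dendritic-like cells with an Fcgrt UMI were 9.66% and 9.15%, and did not follow the CPM. B2m, the partner chain of FcRn, stayed within 1.5-fold in both: its log2 ratio was 0.06 (0.01 to 0.11) in dendritic-like and -0.31 in macrophage-like cells. It was -0.65 in monocyte-like and -0.75 in neutrophil-like cells.

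Dendritic-like cells were split by Xcr1 or Clec9a (type 1), Cd209a (type 2) and Fscn1 with Ccr7 (mature). Fcer1g was far higher in the type 2 cells, with 1098 CPM in 41 WT cells and 1311 CPM in 39 Ring1AKO cells, than in the type 1 cells, with 146 CPM in 67 and 162 CPM in 61 cells. Fcgrt was at 98.9 and 146 CPM in type 1 and at 93.9 and 158 CPM in type 2 cells, and was higher in Ring1AKO in each, with log2 ratios of 0.56 (0.25 to 0.88) and 0.74 (0.24 to 1.27). Mature cells, 18 and 32 of them, had 20.6 and 25.8 CPM of Fcgrt.

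Read against all genes with at least 100 UMIs in a class over both libraries, the share of members that differed was near that of other genes or rested on too few members to compare. Of 6147 such genes in monocyte-like cells, 25.9% differed by 1.5-fold or more, 1336 lower and 255 higher in Ring1AKO, and 2 of 6 members did, Fcgr1 and Fcgr4, both lower. The median gene of this class had a log2 ratio of -0.21, and relative to it the ratios were -0.70 for Fcgr1, -0.39 for Fcgr4, which then lay within 1.5-fold, and 0.22 for Fcgr2b. In C1q macrophage-like cells 18.1% of genes and 1 of 6 members (Fcgrt, higher) were past this fold. In neutrophil-like cells 27.1% of genes were, and of the 3 members with enough UMIs Fcgr4 alone, which was lower. In dendritic-like cells 20.2% of genes and 0 of 3 members were past it, in B-like cells 17.3% and 0 of 3, and in gamma-delta T-like cells 13.9%, with Fcer1g as the only member with enough UMIs and past it.

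**Figure D2:**
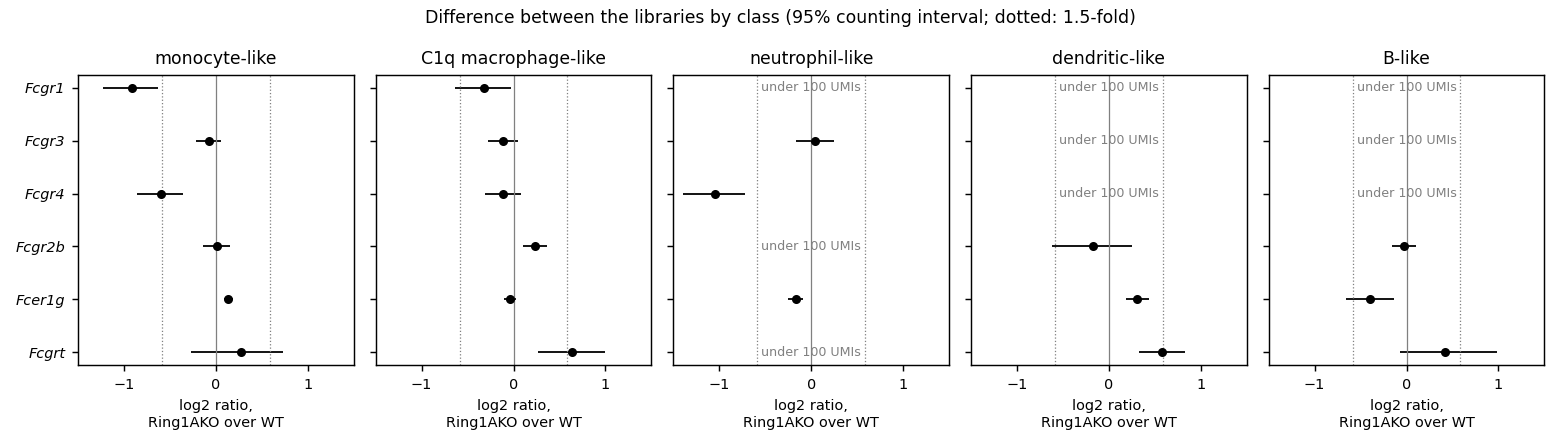
Log2 ratio of Ring1AKO over WT for the 6 genes in 5 classes, with 95% counting intervals. Dotted lines mark 1.5-fold, and genes with under 100 UMIs in a class are not drawn. Fcgr1 and Fcgr4 in monocyte-like cells (-0.91 and -0.60) and Fcgr4 in neutrophil-like cells (-1.05) lie beyond the lower line.

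Detection of the receptors in single cells was compared at equal depth. Thinned to 4000 UMIs, which left 653 WT and 188 Ring1AKO monocyte-like cells and dropped 82 and 29, 36.1% (32.4 to 40.0) and 19.1% (13.8 to 25.5) had an Fcgr1 UMI, and 14.1% (11.5 to 17.0) and 5.85% (2.96 to 10.2) had both Fcgr1 and Fcgr4. If both genes were seen independently, 12.3% and 5.50% of the cells would have both, values inside these intervals. An Fcgr2b UMI together with that of any activating receptor was found in 48.7% and 43.1% of these cells, and any activating receptor in 83.5% and 81.4%. The intervals of this last share overlapped between the libraries, whereas those for Fcgr1 alone did not. An Fcgr4 UMI was found in 34.0% (30.4 to 37.8) and 28.7% (22.4 to 35.8) of these monocyte-like cells, with overlapping intervals. In neutrophil-like cells, 103 and 127 at this depth, the Fcgr4 shares were 45.6% (35.8 to 55.7) and 33.9% (25.7 to 42.8), which also overlapped.

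Monocytes gain MHC class II as they mature in the colon. Monocyte-like cells of both libraries were therefore put into 3 ranges of equal number by the summed CPM of H2-Aa, H2-Ab1 and Cd74 per cell. The limits were 467 and 5552 CPM, and the split was made after the levels were seen. Ring1AKO cells were fewer in the highest range (37 of 217 against 281 of 735 in WT), and 100 WT and 41 Ring1AKO cells lay within 20% of a limit. Fcgr1 was lower in Ring1AKO in each range, with log2 ratios of -0.71 (-1.17 to -0.30), -0.86 (-1.48 to -0.37) and -1.16 (-2.07 to -0.52) from the lowest to the highest. These intervals overlap, and the Fcgr1 levels in Ring1AKO rested on 56, 33 and 16 UMIs. Fcgr4 was lower in the lowest and middle ranges, -0.59 (-1.03 to -0.20) and -1.28 (-1.89 to -0.78), but not in the highest, 0.39 (-0.05 to 0.77), where it rested on 59 UMIs in Ring1AKO. Fcgr2b was at 283 CPM in WT and 410 CPM in Ring1AKO in the highest range, a log2 ratio of 0.55 (0.25 to 0.81), and its intervals in the lower ranges included 0. Fcgr3 in the highest range had a ratio of -0.39 (-0.78 to -0.06), with 832 and 70 UMIs. MHC class II genes are themselves induced by interferon-gamma, so equal ranges need not hold cells at equal stages.

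Some genes known to answer to interferon-gamma were lower past 1.5-fold in every class compared, not only where Fcgr1 or Fcgr4 was lower. In monocyte-like cells 8 of 9 listed genes were past 1.5-fold, all lower, beside 25.9% of all tested genes. The median log2 ratio of the list was -2.23 there, beside -0.21 over all tested genes. Gbp2, a guanylate-binding protein, was at 874 and 52.7 CPM, with a ratio of -4.03. Cxcl9, a T-cell attracting chemokine, had 3214 UMIs in WT and 1 in Ring1AKO. Ifngr1, a receptor chain, was the gene within the fold, at -0.44. In C1q macrophage-like cells 8 of 9 were lower, in neutrophil-like cells 5 of 6 and in dendritic-like cells 6 of 9. Lower genes numbered 5 of 8 in B-like, 3 of 5 in NK-like and 2 of 5 in gamma-delta T-like cells. The shares of all tested genes past the fold in these classes were 18.1%, 27.1%, 20.2%, 17.3%, 14.6% and 13.9%, in the same order. In macrophage-like cells Gbp2 was at -4.14, Fcgr1 at -0.32 (-0.64 to -0.03) and Fcgr4 at -0.11 (-0.31 to 0.08). The Fcgr1 value there depended on which barcodes were counted. In B-like cells Gbp2 was at -1.93 and Fcgr2b, which was not listed as a gene of this response, at -0.03. Whether Fcgr1 and Fcgr4 moved with this list for a shared reason was not tested.

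The next list held kinases, adaptors and phosphatases downstream of ITAM and ITIM receptors. Of 16 with enough UMIs in monocyte-like cells, 4 were past the fold and lower, beside 25.9% of all tested genes past it in either direction: Pik3cd, a PI3-kinase subunit (-0.96), Cbl, a ubiquitin ligase (-0.78), Lat2, an adaptor (-0.63), and Vav1, an exchange factor (-0.60). Syk, the kinase recruited by the gamma chain, was at 404 and 345 CPM (-0.23), and Inpp5d, the phosphatase SHIP1 recruited by the Fcgr2b product, at 95.1 and 91.2 CPM (-0.05). The median of this list was -0.31, near the -0.21 of all tested genes. In neutrophil-like cells 2 of 9 were past the fold, beside 27.1% of all tested genes. They were Syk at 542 and 354 CPM (-0.61) and Cbl at 87.0 and 57.0 CPM (-0.60). Of this list, 2 of 18 were lower and 2 higher in C1q macrophage-like cells, beside 18.1% of all tested genes past the fold. Lower genes numbered 3 of 16 in dendritic-like and 2 of 17 in B-like cells, beside 20.2% and 17.3%. They numbered 2 of 3 in NK-like and 0 of 8 in gamma-delta T-like cells, beside 14.6% and 13.9%.

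Of 7 other genes for receptors that pair with the FcR gamma chain or with DAP12, or for DAP12 itself, 2 were past the fold in monocyte-like cells, beside 25.9% of all tested genes. Both were higher, Clec4d, a C-type lectin that binds mycobacterial lipids (282 and 613 CPM, log2 ratio 1.12), and Trem1, an amplifier of inflammation (135 and 217 CPM, 0.68). Pira2, an activating immunoglobulin-like receptor, was at -0.46, Trem2, a lipid-binding receptor, at -0.21 and Tyrobp, which codes for DAP12, at -0.02. In neutrophil-like cells Clec4n, the gamma-chain lectin dectin-2, was lower (205 and 78.1 CPM, -1.38), and Pira2 higher (0.70). In macrophage-like cells Clec4d was higher (0.82) and Pira2 lower (-1.29). Clec4n was higher in dendritic-like cells (0.83). Of the genes tested, 1 of 6 was lower and 1 higher in neutrophil-like cells, beside 27.1% of all tested genes past the fold. In macrophage-like cells 1 of 7 was lower and 1 higher, beside 18.1%, and in dendritic-like cells 1 of 3 was higher, beside 20.2%. No gene of the list was past the fold in B-like (0 of 3), NK-like (0 of 3) or gamma-delta T-like cells (0 of 1). The shares of all tested genes there were 17.3%, 14.6% and 13.9%.

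Of the complement receptors, 1 of 6 was past the fold in monocyte-like cells, beside 25.9% of all tested genes. It was C5ar1, the receptor for the anaphylatoxin C5a (170 and 514 CPM, 1.60). It was also higher in macrophage-like cells (236 and 468 CPM, 0.99) and nearly level in neutrophil-like cells (869 and 938 CPM, 0.11). Itgam, a chain of complement receptor 3, had ratios of -0.03, 0.07 and -0.52 in these classes. None of 3 complement receptors was past the fold in B-like cells, where Cr2 was at -0.50, beside 17.3% of all tested genes. Of the IL-10 and TGF-beta genes Il10ra, Tgfbr2 and Smad3, no tested gene was past the fold in monocyte-like (0 of 3), macrophage-like (0 of 2), neutrophil-like (0 of 1), dendritic-like (0 of 1), B-like (0 of 3) or gamma-delta T-like cells (0 of 1). The shares of all tested genes past it were 25.9%, 18.1%, 27.1%, 20.2%, 17.3% and 13.9%, in the same order.

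Among the other receptors for antibodies in B-like cells, 2 of 8 were lower and 1 was higher past the fold, beside 17.3% of all tested genes. The lower ones were Fcrl5, an Fc receptor-like protein (19.9 and 11.0 CPM, -0.87), and Trim21, a cytosolic antibody receptor (8.85 and 4.90 CPM, -0.86). Pigr, the transporter of polymeric IgA, was higher (5.95 and 10.6 CPM, 0.80). A Pigr UMI was found in only 35 of 1177 WT and 170 of 3560 Ring1AKO B-like cells, and its level was not compared with cell-free RNA. Fcmr, the IgM receptor, was at 266 and 361 CPM (0.44), and Fcer2a, the low-affinity IgE receptor CD23, at 233 and 171 CPM (-0.44). Fcgr2b stayed level beside these genes. In neutrophil-like cells Pigr had 97 UMIs in WT and 3 in Ring1AKO, but 95 of the 97 came from 1 cell. Fcrls was higher in macrophage-like cells (0.84), and Lgals3, a lectin that binds IgE, in gamma-delta T-like cells (0.76).

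Over all kept cells, every member was lower in Ring1AKO, and the activating receptors by more than within the classes that carried them. The log2 ratio of Fcgr1 was -2.06 (-2.23 to -1.90), with 23.9 CPM in WT and 5.72 CPM in Ring1AKO. The next were Fcgr4 with 38.9 and 14.5 CPM (-1.42), Fcgr3 with 73.5 and 30.9 CPM (-1.25), Fcer1g with 660 and 362 CPM (-0.86) and Fcgr2b with 84.4 and 64.1 CPM (-0.40), and Fcgrt was close to level (-0.14). Monocyte-like cells were 12.2% of the WT and 2.74% of the Ring1AKO cells and B-like cells 19.6% and 45.0%. Had every class kept its WT level, the difference in the classes' shares of UMIs alone would give log2 ratios of -1.04 for Fcgr1, -0.80 for Fcgr4, -0.999 for Fcgr3, -0.80 for Fcer1g, -0.36 for Fcgr2b and -0.33 for Fcgrt. Barcodes in more than 1 gate (16.5% and 19.0% of UMIs) and in none (10.1% and 7.92%) each entered this sum as a class. In this sum the shares alone gave most of the difference in Fcgr3, Fcer1g and Fcgr2b. For Fcgrt they gave more than was observed (-0.33 against -0.14). For Fcgr1 they gave -1.04 of the -2.06 and for Fcgr4 -0.80 of the -1.42. The rest includes differences within the barcodes in more than 1 gate or none, whose own makeup was not compared. It is therefore not a difference within the gated classes alone. The sources of Fcgr2b changed places: monocyte-like cells carried 35.4% of its UMIs in WT and 10.5% in Ring1AKO, and B-like cells 11.7% and 39.0%. Monocyte-like cells carried 53.8% and 26.6% of the Fcgr1 UMIs.

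**Figure D3:**
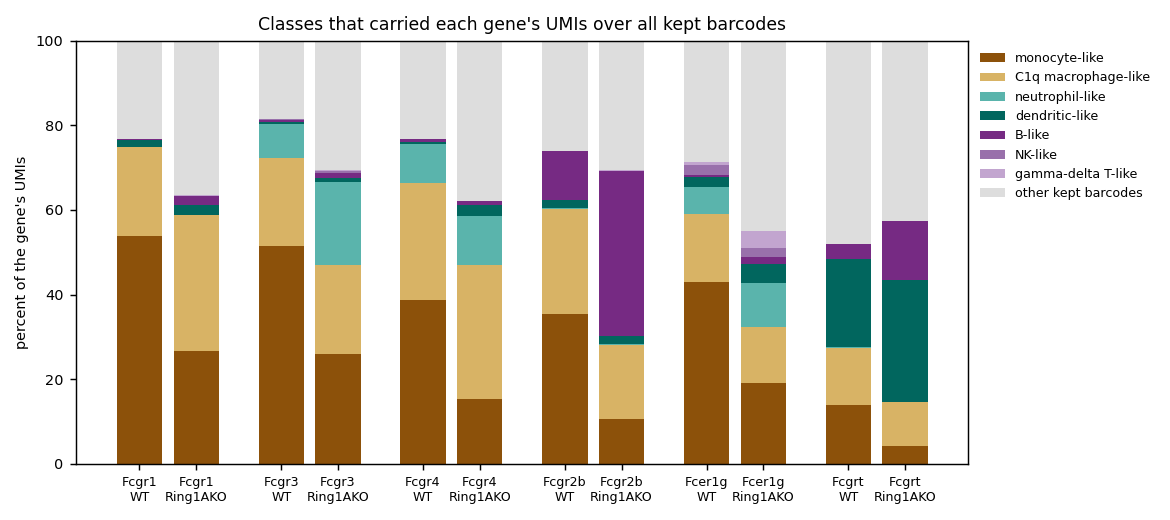
Percent of each gene's UMIs that each class carried over all kept barcodes, as stacked bars for both libraries, with the remaining barcodes in grey. The monocyte-like part of each bar is smaller in Ring1AKO, and the B-like part of Fcgr2b is larger (39.0% against 11.7%).

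The likeness of genes to the members was measured by Pearson's r of log2(CPM + 10) over 16 profiles, the 8 classes in both libraries, among 10483 genes, and is given as a description. Profiles of the same class share cells' identity and depth, and the WT mast-like profile is a single cell. Fcgr3 and Fcgr4 were most like each other among the members (r = 0.94), followed by Fcgr1 and Fcgr2b (0.87), while Fcer1g and Fcgr2b were unrelated (-0.03). The genes nearest to Fcgr1 were Ptpro, Clec4a1 and Nrg1 (0.99 each), those nearest to Fcgr4 Mtus1 (0.99), Gm5150 and Fgd4 (0.98 each), and those nearest to Fcgr3 Rab31 and Itgam (0.96 each). Lgmn (0.98), Nlrc4 and Cybb (0.95 each) were nearest to Fcgr2b, Pim1 (0.96), Tyrobp (0.95) and Rab8b (0.93) to Fcer1g, and Cyp27a1, Ppfia4 (0.97 each) and Htr7 (0.96) to Fcgrt.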

How the data were processed

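The data were 2 droplet libraries made with 10x Genomics 3′ chemistry, 1 per genotype. The authors deposited unnormalized UMI counts of every gene for every barcode, before any selection of cells. The methods name Cell Ranger 3.0.1 and mm10, the matrix header names Cell Ranger 4, and the submitters' processing notes list Cell Ranger 6.0.2, Seurat and mm39, so the build of the counts is not certain. Coordinates came from GENCODE vM21, which holds 32099 of the 32228 gene IDs. The libraries held 74414511 (WT) and 81862096 (Ring1AKO) UMIs. Classes were gated on markers, for example at least 3 of 6 monocyte markers with at most 1 C1q UMI, at least 3 UMIs of C1q genes with a further macrophage marker, at least 3 neutrophil markers, at least 4 B markers, or at least 2 Trdc UMIs with a Cd3 gene. The members and gene lists were chosen with earlier results of these data known. Genes were named as members, as list genes with at least 100 UMIs in a class and as the 3 genes most like each member. A gene that the likeness rule gave and a gene of a list are not reported here. Sums per class were compared as log2 ratios with conditional exact intervals. These were tried only on simulated Poisson counts, the model they assume. Such counts lack the clustering of UMIs by cell, so the trial does not show the coverage of the intervals in these data. No test was made between single libraries. The tools were pandas 2.3.3, matplotlib 3.10.9, scipy 1.17.1 and numpy 2.4.6 under Python 3.11.15. Thinning drew UMIs without replacement with seed 1. Alternatives to the cell filters, gates, denominator, added UMI and cell-free RNA were tried, and another 3 were chosen once the values had been seen.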

Additional observations from a re-analysis of the deposited data

Results flagged for a closer look

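Fcer1g had class ratios with intervals on opposite sides of 0, which is why it is listed here. The 2 classes furthest apart are described. Fcer1g was higher in Ring1AKO in gamma-delta T-like cells (log2 ratio 0.82, 0.64 to 1.00) and lower in B-like cells (-0.40, -0.65 to -0.13). Its interval was also below 0 in neutrophil-like cells (-0.17). It was above 0 in monocyte-like (0.14), dendritic-like (0.31) and alpha-beta T-like cells (0.55). The difference between the classes was not tested, since each genotype had 1 library. The B-like value rested in part on 1 cell, which held 41 of the 180 WT UMIs (22.8%), and without the cell with the most UMIs in each library, an alternative chosen after the values were seen, the ratio was -0.09. It was -0.72 with the cell-free profile subtracted, -0.83 with barcodes in more than 1 gate kept and -1.08 with 1 more marker asked of every gate. Cell-free RNA at the estimated shares would give 18.1 CPM in WT and 15.5 CPM in Ring1AKO B-like cells, where 29.0 and 22.0 CPM were seen. The summed level of the 7 monocyte markers in B-like cells was 960 CPM in WT and 599 CPM in Ring1AKO.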

How the results depend on the processing

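Each of 30 log2 ratios was computed again under up to 12 alternatives, 9 of them planned, which gave 354 values. Of these, 28 differed in sign from the reported value, 4 of them for a ratio whose counting interval excluded 0. Apart from these 4, 324 lay within the counting interval of the reported value and 26 outside it. Fcgr1 in monocyte-like cells ranged from -1.01 to -0.70, Fcgr4 there from -0.72 to -0.39, Fcgr4 in neutrophil-like cells from -1.21 to -0.91, Fcer1g in NK-like cells from 0.04 to 0.20 and the activating to inhibitory balance of monocyte-like cells from -0.33 to -0.21. Without barcodes that had a UMI of another class's defining marker, Fcgr1 in C1q macrophage-like cells was 0.10. With barcodes in more than 1 gate kept, it was -0.79, Fcgr4 in these cells -0.46 and Fcgr2b in these cells -0.031. Under the same setting Fcgr4 in dendritic-like cells was -0.043 in place of 1.09 (0.14 to 2.22). Fcer1g in dendritic-like cells was -0.22 in place of 0.31 (0.18 to 0.43). The cause was not tested. Relative to the median gene of the class, Fcgr2b in B-like cells was 0.14. With a minimum of 30 UMIs in place of 100, 2708 genes of monocyte-like cells were past 1.5-fold in place of 1591. More genes met the lower minimum, and the share of them past the fold is not given. No paired analysis was possible because each genotype had 1 library. Depth limits Fcgr1 in Ring1AKO monocyte-like cells, which rests on 105 UMIs, and the absence of replicates limits every comparison.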
